A study of Mus musculus with 12 samples.

Results

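Naive CD8 T cells are circulating cytotoxic precursors that have not yet met their antigen. In this study they were chosen by their measured Ccl5 value, as the spleen cells annotated CD8 in which it was below 3, Ccl5 being a chemokine gene that CD8 T cells switch on after antigen or cytokine exposure. The rule found 924 such cells among 1646 CD8 T cells and 22285 cells in all. They came from 4 male mice. SLE.yaa denotes 2 mice of the strain B6.Sle1yaa, which gave 140 and 51 of the cells. WT denotes 2 C57BL/6 mice, which gave 332 and 401. Spleen leukocytes had been enriched for CD45 on magnetic columns before droplet capture (10x Genomics), with 1 expression library, 1 B cell receptor library and 1 T cell receptor library per mouse. The labels give the condition under a tag that mentions chimeras, without saying that these animals were such. The deposited age was 14.9 in both SLE.yaa mice and 14.4 in both WT mice, with no unit, so age cannot be told apart from strain. Values of a group are given in the order of mouse 1 and mouse 2, and p-values measure the spread between these mice, of which each group has 2. The p-values and SE of limma also draw on the spread of the other genes tested, so they do not rest on these mice for each gene alone.

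B6.Sle1yaa mice carry the lupus interval Sle1 on chromosome 1 and the Yaa mutation, in which the end of the X chromosome has moved onto the Y, so that males have an extra copy of Tlr7 and its neighbours. Naive T cells recirculate through spleen and lymph nodes under the transcription factors Lef1 and Tcf7, with the chemokine receptor Ccr7 guiding their entry. Interferons, γc cytokines and self peptides can shift naive CD8 cells toward a memory-like state, in which Ly6c2, Eomes and Il2rb are known markers, without a large clone being formed.

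The annotation as naive type was checked against the markers Lef1, Ccr7, Ccr9 and Dapl1. Of the 924 cells, 897 (97.1%) were above 0 in at least 1 of the 4, against 398 of 722 (55.1%) Ccl5-high CD8 cells. Lef1 was above 0 in 89.5% of the Ccl5-low cells, Ccr7 in 77.4%, Dapl1, a small protein of resting lymphocytes, in 61.1%, and Ccr9, a gut-homing receptor, in 26.3%. Cells annotated Mac, which should lack Lef1 and Dapl1, were above 0 in 0.543% and 0.155% of cells, at a median of 3427 UMIs against 5638 in the Ccl5-low cells. Cd8b1, the CD8 beta chain, stood at 1272 and 1161 vpm in SLE.yaa cells, against 1582 and 1609 vpm in WT cells. Here vpm is the mean depth-adjusted value per cell, scaled to 1000000 per mouse and then between mice. Cd4 was at most 16.4 vpm in any mouse, Foxp3 at most 2.26 vpm, and the NK receptor genes Ncr1 and Klrb1a, 2 of 11 NK and unconventional T cell markers in the table, were at 0 in all 4 mice. The 11 summed to 144 and 370 vpm in SLE.yaa cells, against 136 and 70.2 vpm in WT cells, scaled to the sum alone. Eomes, also a memory CD8 gene, is 1 of the 11. On that scale it gave 130 and 153 vpm in SLE.yaa cells, against 39.4 and 30.5 vpm in WT cells. Klrb1c stood at 0 and 0 vpm in SLE.yaa cells, against 4.53 and 1.83 vpm in WT cells. The part of such cells in the results was not tested. The label therefore held for most of these cells.

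Ccl5 chose the cells and is given as a description. The value was 0 in 130 and 37 SLE.yaa cells, against 311 and 376 WT cells. It was 1 in 7 and 11 SLE.yaa cells, against 14 and 21 WT cells. Just inside the threshold, at a value of 2, stood 3 and 3 SLE.yaa cells, against 7 and 4 WT cells. Just outside, at a value of 3, stood 3 and 3 SLE.yaa cells, against 6 and 3 WT cells. SLE.yaa 2 thus had the largest part of its Ccl5-low cells above 0. The Ccl5-high cells had a median value of 74 and 117 in SLE.yaa mice, against 23 and 30 in WT mice.

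The share of CD8 T cells with a Ccl5 value below 3 was smaller in the SLE.yaa spleens. This share and its tests rest on the same Ccl5 values that chose the cells. A naive marker was above 0 in 55.1% of Ccl5-high cells too, so the share is not a count of naive cells. Ccl5-low cells made up 48.1% (95% exact binomial interval 42.2 to 54.0) and 15.1% (11.5 to 19.4) of CD8 T cells in SLE.yaa mice, against 74.1% (69.8 to 78.1) and 70.5% (66.5 to 74.2) in WT mice. The groups did not overlap, and the SLE.yaa mice lay further apart from each other than the WT mice did. The mean difference was -40.7 percentage points, with an exact two-sided permutation p of 0.333, the smallest that 2 mice against 2 allow. Of all cells, they were 2.82% and 0.832% in SLE.yaa mice, against 6.04% and 7.04% in WT mice. That share fell in SLE.yaa by 1.85 on the log2 scale (edgeR quasi-likelihood test over 13 populations, adjusted p = 0.0144). The Ccl5-high cells, at 3.04% and 4.68% in SLE.yaa mice against 2.11% and 2.95% in WT mice, did not pass (log2 change 0.61, adjusted p = 0.259). The Ccl5-low call was lost without WT 1 (-1.95, adjusted p = 0.0529), without WT 2 (-1.73, 0.143), with B, CD4, CD8 and NK cells alone as the denominator (-1.48, 0.170) and with TMM factors over the populations (-1.57, 0.124). Cells annotated Mac moved the other way (11.1% and 24.2% in SLE.yaa mice, against 6.82% and 2.97% in WT mice), and their part in the share of all cells was not tested.

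**Figure D1:**
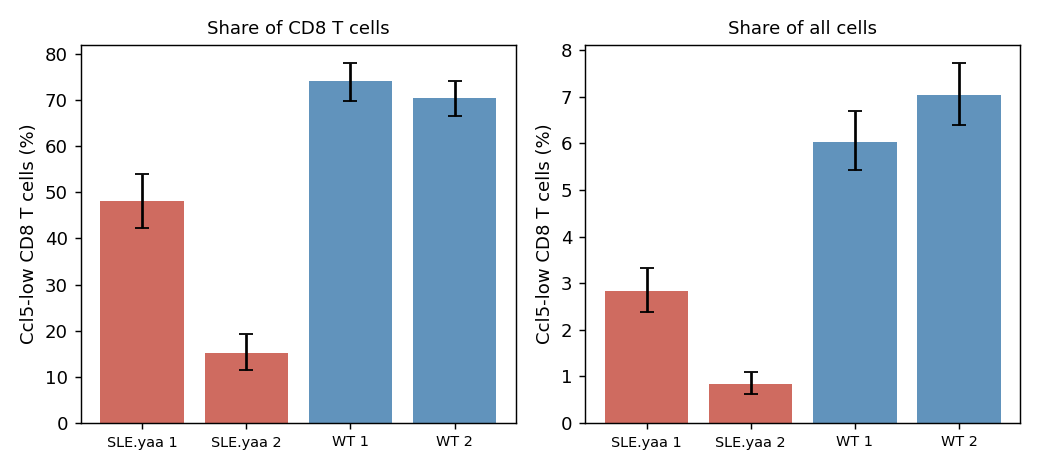
Ccl5-low CD8 T cells in percent of CD8 T cells (left) and of all cells (right), 1 bar per mouse, with exact binomial 95% intervals that cover counting error only. SLE.yaa 1 and SLE.yaa 2 stand at 48.1% and 15.1% of CD8 T cells, both below WT 1 and WT 2 at 74.1% and 70.5%.

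Within the Ccl5-low cells, 10 of 8262 genes passed the comparison of SLE.yaa with WT, or 0.121% of the genes tested, and all 10 were higher in SLE.yaa (limma, Benjamini-Hochberg adjusted p under 0.05). None was lower by limma, with 349 genes lower and 320 higher at an unadjusted p under 0.05. Log2 changes are of vpm plus 10, which understates the change of low genes. The 10 were Ly6a, Lag3, Gzmk, Slamf7, Eomes, Bcl3, Anxa2, Ptms, Tmsb4x and the immunoglobulin gene Ighg2c. Genes entered the test with at least 10 vpm in 2 mice. Lag3, Gzmk and Ighg2c were below 10 vpm in both WT mice, so they entered only because both SLE.yaa mice were higher. Their direction was thus fixed by the filter.

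Ly6a, which encodes the interferon-induced surface protein Sca-1 (chr15:74994877-74998031, GRCm38), had 576 and 837 vpm in SLE.yaa cells, against 113 and 35.9 vpm in WT cells. It rose by 3.23 (SE 0.39, adjusted p = 0.0246), the largest change among the 10 on this scale. With 1 added in place of 10, the changes of Ighg2c (5.54), Gzmk (4.58) and Lag3 (4.19) were larger than that of Ly6a (3.42). The share of cells above 0 was 71.4% and 94.1% in SLE.yaa mice, against 24.7% and 11.7% in WT mice. Sums of depth-adjusted values were higher in SLE.yaa cells, so each cell was thinned to 3000 of these units. The share was then 61.1% and 85.1%, against 20.8% and 9.21%. Here and below, thinning evens those sums and does not even the UMI depth behind them. Cells annotated Mac were above 0 in 22.9% and 32.9% in SLE.yaa mice, against 30.9% and 2.37% in WT mice, so both SLE.yaa values of the CD8 cells lay above that level.

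Lag3, an inhibitory receptor that binds MHC class II, had 66.6 and 86.2 vpm in SLE.yaa cells, against 5.28 and 1.83 vpm in WT cells, a rise of 2.67 (SE 0.25, adjusted p = 0.00983). It was above 0 in 18.6% and 21.6% of SLE.yaa cells, against 1.51% and 0.748% of WT cells, while at most 0.727% of Mac cells of any mouse were. Ptms, encoding the small acidic nuclear protein parathymosin, lies next to Lag3 on chromosome 6 (chr6:124913675-124917946, beside chr6:124904359-124912434). It had 98.4 and 135 vpm in SLE.yaa cells, against 26.4 and 15.8 vpm in WT cells, a rise of 2.03 (SE 0.24, adjusted p = 0.0246).

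Gzmk, Slamf7 and Eomes are genes of memory and effector CD8 cells. Gzmk, a granzyme of memory precursors, had 33.3 and 41.0 vpm in SLE.yaa cells, against 1.51 and 0 vpm in WT cells, a rise of 2.13 (SE 0.27, adjusted p = 0.0296). It was seen in 11 and 6 SLE.yaa cells, against 2 and 0 WT cells. Slamf7, a SLAM family receptor of cytotoxic and plasma cells whose gene lies in the Sle1 region (chr1:171632403-171653037), had 95.5 and 94.4 vpm in SLE.yaa cells, against 19.6 and 9.75 vpm in WT cells. It rose by 2.12 (SE 0.24, adjusted p = 0.0246). Eomes, a T-box transcription factor of memory CD8 and NK cells, had 130 and 156 vpm in SLE.yaa cells, against 39.3 and 29.9 vpm in WT cells, a rise of 1.78 (SE 0.19, adjusted p = 0.0205). Eomes was above 0 in 30% and 33.3% of SLE.yaa cells, against 11.7% and 10.5% of WT cells. The groups were well apart in Slamf7 and Eomes, while for Gzmk their order was fixed by the filter. All 3 were named for passing the test, so this distance adds no support to it. In each of the 3, most SLE.yaa cells were at 0.

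Bcl3, an atypical IκB protein that binds NF-κB p50 and p52, had 89.7 and 94.4 vpm in SLE.yaa cells, against 22.6 and 26.2 vpm in WT cells, a rise of 1.57 (SE 0.19, adjusted p = 0.0246). Anxa2, a calcium-dependent membrane-binding protein, had 98.4 and 127 vpm in SLE.yaa cells, against 33.2 and 23.8 vpm in WT cells, a rise of 1.67 (SE 0.21, adjusted p = 0.0299). Tmsb4x, which encodes the actin-sequestering peptide thymosin beta 4, was among the most abundant transcripts, with 13241 and 16227 vpm in SLE.yaa cells, against 6128 and 5229 vpm in WT cells. It rose by 1.37 (SE 0.12, adjusted p = 0.00806), and its gene lies in the distal X segment that Yaa carries (chrX:167207093-167213479). Bcl3 was the call that turned direction under an alternative (-0.49 in cells of 2000 to 4000 UMIs, which left 15 and 5 SLE.yaa cells).

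Ighg2c, the IgG2c heavy chain constant gene of plasma and switched B cells, had 59.3 and 61.6 vpm in SLE.yaa cells, against 0.755 and 0 vpm in WT cells (log2 change 2.76, SE 0.24, adjusted p = 0.00806). It was above 0 in 26.4% and 25.5% of the SLE.yaa Ccl5-low cells, against 0.301% and 0% of the WT cells. Cells annotated Mac, which do not make it, were above 0 in 24.2% and 21.1% in SLE.yaa mice, against 0% and 0% in WT mice. Thinned to 3000 depth-adjusted units, the shares were 16.4% and 15.4% in SLE.yaa Ccl5-low cells and 19.0% and 16.8% in SLE.yaa Mac cells. At that sum the CD8 cells did not exceed a type that lacks the gene, and no expression is read from them. Their UMI depths were not evened. Immunoglobulin RNA was not even over the types, since Igkc, scaled to the sum alone, had 4283 and 113 vpm in SLE.yaa Ccl5-low cells and 697 and 190 vpm in SLE.yaa Mac cells. Jchain was above 0 in similar shares, with 20.7% and 13.7% of SLE.yaa Ccl5-low cells against 21.8% and 9.83% of SLE.yaa Mac cells.

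The count of 10 depends on each mouse. It became 1807 without SLE.yaa 1, 463 without SLE.yaa 2, 44 without WT 1 and 29 without WT 2, where the lone mouse of a group is assumed to vary like the other group. With mice weighted by their number of Ccl5-low cells, 55 genes passed as higher and 13 as lower. Lag3, Gzmk and Slamf7 did not pass in cells with Ccl5 at 0, Ly6a did not with robust shrinkage, and 1 gene passed with 1 added to each value in place of 10. The count was 0 with no minimum level, 0 in cells of 2000 to 4000 UMIs and 2 on the mean of the deposited ln values.

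**Figure D2:**
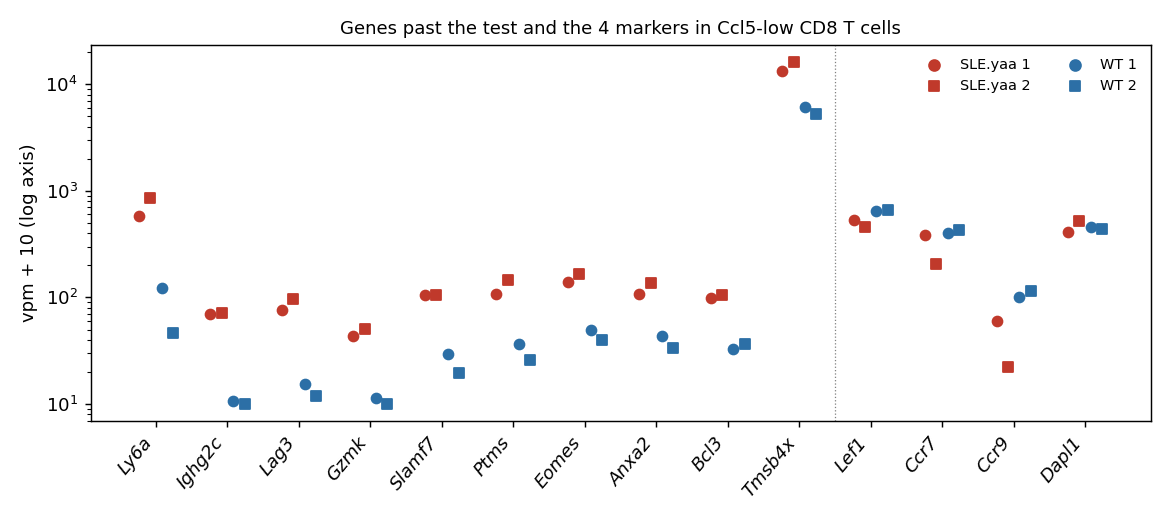
Levels in vpm plus 10 on a log axis for the 10 genes past the test, left of the dotted line, and the 4 naive markers, right of it, with 1 point per mouse. For each of the 10, both SLE.yaa mice stand above both WT mice, and for Dapl1 the groups overlap.

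Across the list of memory and effector genes, 3 of 20 tested members passed, all higher (Eomes, Slamf7 and Gzmk), and 13 of the 33 genes were too low to test. Both SLE.yaa mice stood above both WT mice in 16 of the 20, against 17.9% of all genes tested. The median log2 change was 1.02, against -0.04 over all genes tested. Gzmk was tested only through the SLE.yaa mice, so its place among the 16 was fixed by the filter. The same holds for any other member below 10 vpm in both WT mice, so the 16 and the median are in part set by the filter. Ly6c2, a surface antigen of interferon-exposed and memory CD8 cells, had 884 and 1412 vpm in SLE.yaa cells, against 446 and 395 vpm in WT cells, and just missed the threshold (log2 change 1.39, SE 0.20, adjusted p = 0.0548). The integrin chain gene Itgb1 (1.11, adjusted p = 0.0774) and the chemokine receptor gene Cxcr3 (1.30, 0.118) also lay apart between the groups without passing. Cd44, the classical marker of antigen-experienced cells, had 33.3 and 65.7 vpm in SLE.yaa cells, against 18.1 and 7.92 vpm in WT cells (1.35, adjusted p = 0.283). Klrd1, which encodes the CD94 receptor chain, and Cxcr6 were the members below WT in both SLE.yaa mice (-0.53 and -0.56, adjusted p = 0.340 and 0.573). Ifng and Klrg1, genes of differentiated effectors, were at 0 in all 4 mice.

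Of 8 inhibitory receptor genes and Tox tested, 1 passed (Lag3) and 6 were higher and 2 lower in both SLE.yaa mice, with a median of 0.87, against 0.121% called and 17.9% higher and 22.5% lower over all genes tested. Pdcd1, encoding PD-1, had 20.3 and 16.4 vpm in SLE.yaa cells, against 3.02 and 1.83 vpm in WT cells (1.19, adjusted p = 0.252). Tigit had 23.2 and 20.5 vpm in SLE.yaa cells, against 1.51 and 0 vpm in WT cells (1.57, adjusted p = 0.129). Lag3, Pdcd1 and Tigit were below 10 vpm in both WT mice, so they were tested only through the SLE.yaa mice. Their place among the 6 was thus fixed by the filter, which also raises the median. Cd160 and Btla were lower in both SLE.yaa mice (-0.95 and -0.42), and neither passed (adjusted p = 0.351 and 0.673).

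Most interferon-inducible genes had both SLE.yaa mice above both WT mice, and few of them passed the test. Of 15 interferon-gamma-induced GTPases, which attack pathogen vacuoles, 14 were higher in both SLE.yaa mice and 0 lower, against 17.9% and 22.5% of all genes, with a median of 0.73 and 0 past the test by limma. Of 33 tested type I interferon antiviral genes, 26 were higher in both SLE.yaa mice and 1 was lower, with a median of 0.64, and Ly6a passed. Gbp2 had 182 and 205 vpm in SLE.yaa cells, against 86.8 and 53.0 vpm in WT cells (1.38, adjusted p = 0.0774). Igtp had 240 and 209 vpm in SLE.yaa cells, against 123 and 91.4 vpm in WT cells (1.01, adjusted p = 0.118). Isg15, a ubiquitin-like modifier, had 104 and 103 vpm in SLE.yaa cells, against 54.4 and 36.6 vpm in WT cells (1.05, adjusted p = 0.166). The WT mice also differed from each other here, as Iigp1 shows with 101 and 107 vpm in SLE.yaa cells, against 39.3 and 6.09 vpm in WT cells. Some antiviral genes lay level or the other way, Ifit2 being lower in both SLE.yaa mice (-0.28) and Irf9 overlapping (-0.01).

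The promoters of 3 of these genes are shown because both SLE.yaa mice stood above both WT mice in each and because they carry known interferon motifs, although none of the 3 passed the test by limma. Each is the 120 bases before the first listed start in RefSeq (GRCm38.p6), 5′ to 3′ on the strand of the gene. Capitals mark matches on either strand to GAAA repeated after any 2 bases, the core of the interferon-stimulated response element (ISRE) of type I interferon signalling, and to TTCNNNGAA, the gamma-activated site (GAS) of interferon-gamma signalling.
Gbp2 (chr3:142620543-142620662, plus strand): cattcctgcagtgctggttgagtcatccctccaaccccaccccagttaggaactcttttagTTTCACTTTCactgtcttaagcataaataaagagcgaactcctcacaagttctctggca
Igtp (chr11:58199436-58199555, plus strand): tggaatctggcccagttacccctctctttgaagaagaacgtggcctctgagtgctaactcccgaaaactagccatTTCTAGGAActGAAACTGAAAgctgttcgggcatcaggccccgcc
Isg15 (chr4:156200819-156200938, minus strand): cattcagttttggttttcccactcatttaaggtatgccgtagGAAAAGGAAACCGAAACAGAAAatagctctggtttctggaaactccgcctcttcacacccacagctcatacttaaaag
Gbp2 holds 1 ISRE match on the opposite strand, Igtp holds 1 GAS and 1 ISRE match side by side, and Isg15 holds 3 overlapping ISRE matches. In windows of 300 bases (250 before to 50 after the start), the ISRE core was found for 9 of 10 interferon-gamma GTPases and 14 of 25 type I genes that had a promoter in the table, against 3.35% of 6595 promoters of genes tested. The GAS letters were found for 6 of 10 and 6 of 25, against 6.79%. Of the 7 genes past the test that had a promoter in the table, Eomes held the ISRE core and 0 held the GAS letters. A match is a string of letters and no evidence of binding here.

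**Figure D3:**
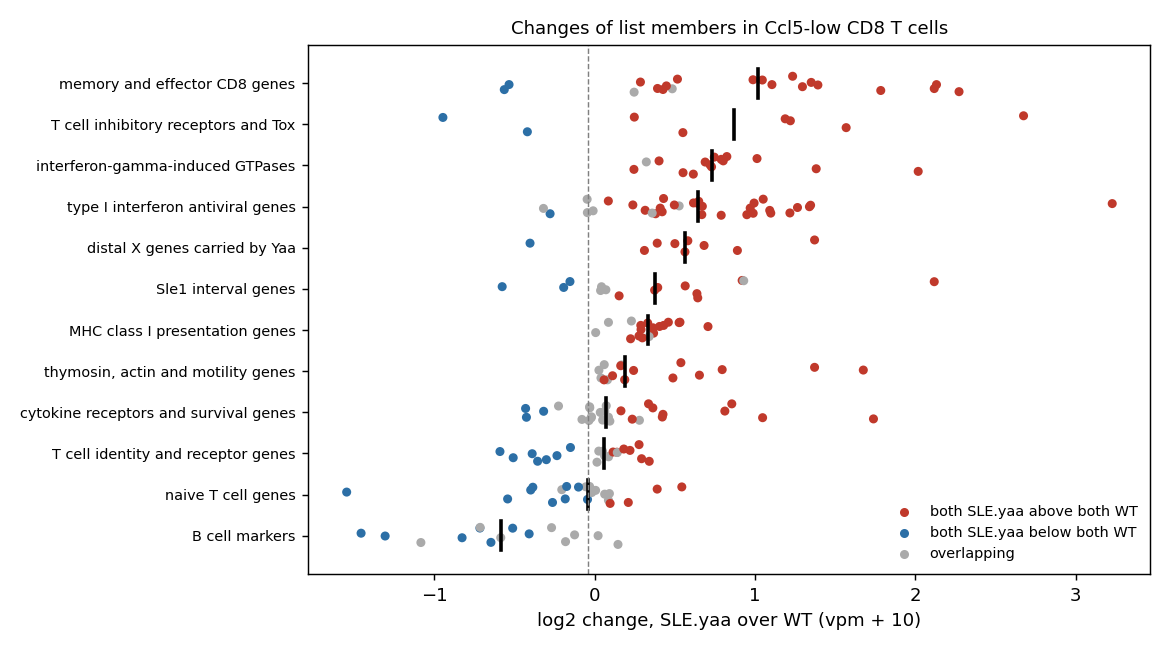
Log2 change, SLE.yaa over WT, of each tested member of 12 gene lists in Ccl5-low CD8 T cells, with a black bar at the list's median and a dashed line at the median of all genes tested (-0.04). Members of the memory, inhibitory receptor and interferon lists lie mostly to the right with both SLE.yaa mice above both WT mice, and naive genes lie around the dashed line. Members below 10 vpm in both WT mice, such as Gzmk, Lag3, Pdcd1 and Tigit, were tested only through the SLE.yaa mice.

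No naive gene passed the test within these cells. Of 21 tested naive genes, 0 passed by limma in either direction, 4 (19.0%) were higher and 9 (42.9%) lower in both SLE.yaa mice, against 17.9% and 22.5% of all genes tested. The median was -0.04, as over all genes tested. Lef1 had 519 and 447 vpm in SLE.yaa cells, against 633 and 645 vpm in WT cells (log2 change -0.40, SE 0.12, adjusted p = 0.402). Ccr7 had 378 and 197 vpm in SLE.yaa cells, against 388 and 418 vpm in WT cells (-0.54, SE 0.25, adjusted p = 0.630), with SLE.yaa 2 apart from the other 3 mice. Dapl1 had 405 and 513 vpm in SLE.yaa cells, against 444 and 429 vpm in WT cells, so the groups overlapped (0.06, SE 0.14, adjusted p = 0.923). Igfbp4, a binding protein of insulin-like growth factors that marks naive T cells, had 460 and 480 vpm in SLE.yaa cells, against 325 and 314 vpm in WT cells (0.54, SE 0.12, adjusted p = 0.208).

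Ccr9 had the lowest change of the naive list. Its level was 50.6 and 12.3 vpm in SLE.yaa cells, against 90.6 and 105 vpm in WT cells (-1.55, SE 0.40, adjusted p = 0.299). It was above 0 in 16.4% and 3.92% of SLE.yaa cells, against 26.5% and 32.4% of WT cells, and thinned in 11.5% and 2.89% against 21.6% and 26.0%. In Mac cells the share was at most 1.18% in any mouse. The CD8 chain genes Cd8a (-0.36, SE 0.11, adjusted p = 0.443) and Cd8b1 (-0.39, SE 0.10, adjusted p = 0.299) were lower in both SLE.yaa mice and did not pass.

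Of 9 tested genes of the distal X segment, 8 were higher in both SLE.yaa mice, against 17.9% of all genes tested, with a median of 0.56, and Tmsb4x passed (0.121% of all genes). Tlr7, which senses single-stranded RNA in endosomes (chrX:167303380-167330574), was near the limit of detection, with 15.9 and 16.4 vpm in SLE.yaa cells, against 5.28 and 3.05 vpm in WT cells (0.89, adjusted p = 0.430). It was tested only through the SLE.yaa mice, so its place among the 8 was fixed by the filter. Ofd1 was the exception, with 10.1 and 8.21 vpm in SLE.yaa cells, against 18.1 and 12.8 vpm in WT cells (-0.40, adjusted p = 0.699). Among 15 tested Sle1 interval genes, Slamf7 passed, and 8 were higher and 3 lower in both SLE.yaa mice, against 17.9% and 22.5% of all genes. Slamf6, a SLAM family receptor beside it, had 292 and 312 vpm in SLE.yaa cells, against 161 and 149 vpm in WT cells (0.92, SE 0.13, adjusted p = 0.0553). Cd48, the ligand of the SLAM family receptor CD244, went the other way, with 146 and 119 vpm in SLE.yaa cells, against 190 and 214 vpm in WT cells (-0.58, adjusted p = 0.340).

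Of 18 MHC class I presentation genes, 14 were higher in both SLE.yaa mice and 0 lower, against 17.9% and 22.5% of all genes tested, with a median of 0.335 and 0 past the test by limma. Tap1, a subunit of the peptide transporter, had 219 and 279 vpm in SLE.yaa cells, against 178 and 122 vpm in WT cells (0.71, adjusted p = 0.369). Of 17 thymosin, actin and motility genes, Tmsb4x and Anxa2 passed and 11 were higher in both SLE.yaa mice, with a median of 0.19. Among 27 cytokine receptor and survival genes, 0 passed by limma, and Il10ra, the IL-10 receptor chain, had 59.3 and 98.5 vpm in SLE.yaa cells, against 18.9 and 13.4 vpm in WT cells (1.74, adjusted p = 0.0721). Glycolysis genes (1 of 14 higher in both SLE.yaa mice, median 0.12), proliferation genes (4 of 12, 0.05), immediate early genes (3 of 14, 0.01), heat shock genes (1 of 9, -0.14) and T cell identity and receptor genes (7 of 20 higher and 7 lower, 0.06) gave 0 calls by limma, and their counts of higher members read against the same 17.9% of all genes.

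Counts of these transcripts per cell are a description, since the genes were chosen for being higher in SLE.yaa and the cells were not thinned. Of the 8 called genes other than Tmsb4x and Ighg2c, at least 3 were above 0 in 43 of 140 (30.7%) and 20 of 51 (39.2%) SLE.yaa cells, against 9 of 332 (2.71%) and 6 of 401 (1.5%) WT cells. Cells with 0 of the 8 were 11 (7.86%) and 0 in SLE.yaa mice, against 165 (49.7%) and 252 (62.8%) in WT mice. Among the SLE.yaa cells with at least 3 of the 8, 93.0% and 85.0% held a naive marker, and Lef1 was above 0 in 83.7% and 70.0%. Both shares were higher in SLE.yaa cells with 1 or 2 of the 8, at 97.7% and 90.3% for a naive marker and 88.4% and 83.9% for Lef1. Some of the 8 are not specific to T cells, Anxa2 being above 0 in 68.5% and Ptms in 36.9% of Mac cells of SLE.yaa 1. The median depth of those SLE.yaa cells was 6576 and 5774 UMIs, below the medians of 6853 and 6464 for all SLE.yaa Ccl5-low cells.

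Ly6c2 divided the cells of every mouse. It was above 0 in 67.9% and 82.4% of SLE.yaa cells, against 42.2% and 33.9% of WT cells, and thinned in 61.8% and 78.0% against 38.8% and 31.7%. Ly6c2-positive cells had more Dapl1 per cell in each mouse. In SLE.yaa mice the mean depth-adjusted Dapl1 value was 2.37 and 2.76 in positive cells and 1.22 and 1.0 in negative ones, and in WT mice 2.53 and 2.51 in positive cells and 1.22 and 1.37 in negative ones. Ccr9 ran the other way, at 0.126 and 0.0238 in positive and 0.511 and 0.222 in negative SLE.yaa cells, and at 0.15 and 0.213 in positive and 0.516 and 0.540 in negative WT cells. Eomes was not higher in positive than in negative SLE.yaa cells (0.547 and 0.738 against 0.844 and 0.778), and was higher in positive than in negative WT cells (0.279 and 0.206 against 0.0677 and 0.0792). Positive cells were deeper in SLE.yaa 1 (7341 UMIs against 5890) and in both WT mice (5983 and 6204 UMIs against 5017 and 5203), and the negative group of SLE.yaa 2 held 9 cells, so these are descriptions.

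**Figure D4:**
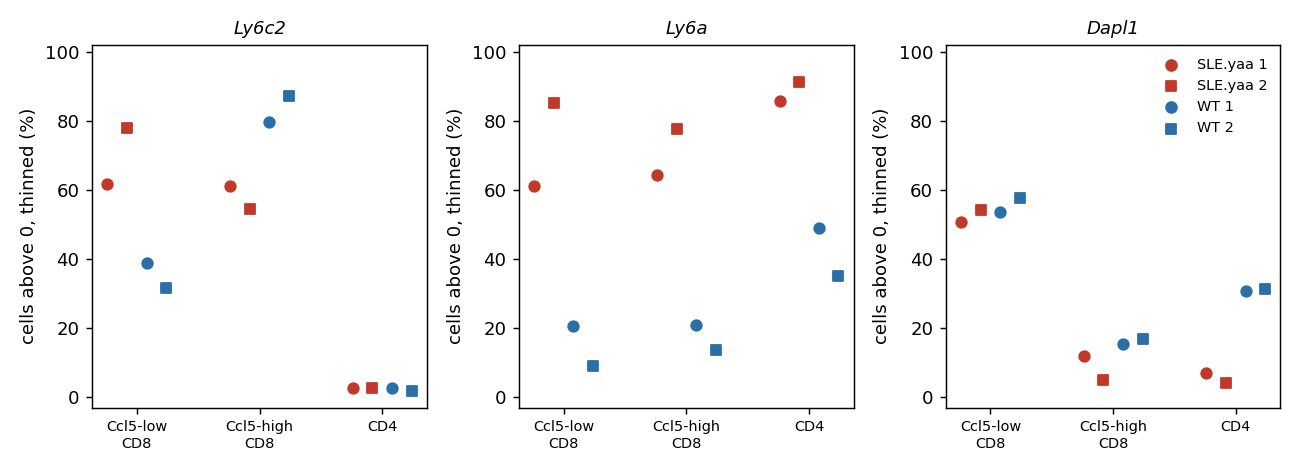
Percent of cells above 0 for Ly6c2, Ly6a and Dapl1 after thinning each cell to 3000 depth-adjusted units, in Ccl5-low CD8, Ccl5-high CD8 and CD4 T cells, with 1 point per mouse. Ly6c2 in Ccl5-low cells is higher in SLE.yaa (61.8% and 78.0% against 38.8% and 31.7%), and in Ccl5-high cells it is higher in WT.

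Set beside the Ccl5-high cells of the same mice, as a description, the Ccl5-low cells had more Igfbp4, Dapl1, Rgcc, Ccr7 and Itgae in all 4 mice and less S100a6, S100a4, Tbx21, Il18rap and Fasl. Igfbp4, for one, had 460 and 480 vpm in Ccl5-low SLE.yaa cells and 325 and 314 vpm in Ccl5-low WT cells, with 16.7 and 1.80 vpm in Ccl5-high SLE.yaa cells and 44.1 and 26.0 vpm in Ccl5-high WT cells. Tbx21, which encodes the effector factor T-bet, had 18.8 and 8.21 vpm in Ccl5-low SLE.yaa cells and 10.6 and 3.05 vpm in Ccl5-low WT cells, with 114 and 95.6 vpm in Ccl5-high SLE.yaa cells and 118 and 101 vpm in Ccl5-high WT cells. Set beside CD4 T cells, the Ccl5-low cells had more Cd8b1, Cd8a, Ly6c2, Klrd1 and Ctsw and less Cd4, Cd40lg, Foxp3 and Zbtb7b, the factor that fixes the CD4 lineage.

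The change from WT to SLE.yaa differed between Ccl5-low and Ccl5-high cells for 184 of 8711 genes, or 2.11%, with 57 (0.654%) more positive and 127 (1.46%) more negative in the Ccl5-low cells (limma on differences within mice). Scaled to the sum alone, 112 were more positive and 97 more negative, so the balance of directions depends on the scaling. Ly6c2 led them. In Ccl5-high cells it had 1389 and 1171 vpm in SLE.yaa mice, against 1740 and 1789 vpm in WT mice, a change of -0.47 where the Ccl5-low change was 1.39, so the changes differed by 1.86 (SE 0.16, adjusted p = 7.94e-13). In this comparison limma gave the other genes a weight of 53.1 prior degrees of freedom, against 6.51 in the main comparison. Such small p-values thus rest mostly on spread pooled over genes. Id3, an inhibitor of E proteins kept in naive and memory precursor cells, had 139 and 148 vpm in Ccl5-low SLE.yaa cells, against 90.6 and 87.1 vpm in Ccl5-low WT cells. In Ccl5-high cells it had 61.4 and 41.5 vpm in SLE.yaa mice, against 145 and 114 vpm in WT mice (difference 1.82, SE 0.24, adjusted p = 7.03e-07). Of the 21 naive genes tested, 9 had a more positive change in the Ccl5-low cells and 0 a more negative one. A naive marker was above 0 in 55.0% and 36.9% of Ccl5-high SLE.yaa cells, against 69.8% and 76.2% of Ccl5-high WT cells. The part of this make-up of the Ccl5-high class in the contrast was not tested.

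Several leading genes differed mainly in the Ccl5-high cells. Ccl3, a chemokine of activated cytotoxic cells, had at most 1.45 vpm in the Ccl5-low cells of any mouse, with 105 and 158 vpm in Ccl5-high SLE.yaa cells, against 4.20 and 2.74 vpm in Ccl5-high WT cells (difference -3.31, SE 0.41, adjusted p = 1.03e-07). Itga4, the alpha 4 integrin chain, had 214 and 287 vpm in Ccl5-low SLE.yaa cells, against 201 and 203 vpm in Ccl5-low WT cells, and 643 and 940 vpm in Ccl5-high SLE.yaa cells, against 202 and 268 vpm in Ccl5-high WT cells (difference -1.41, SE 0.17, adjusted p = 1.03e-07). Lsp1, a leukocyte actin-binding protein, differed by -1.18 (SE 0.16, adjusted p = 7.03e-07). Xcl1, a chemokine that attracts cross-presenting dendritic cells, had 34.7 and 4.10 vpm in Ccl5-low SLE.yaa cells, against 5.28 and 3.05 vpm in Ccl5-low WT cells, so SLE.yaa 1 stood apart. In Ccl5-high cells it had 36.3 and 33.4 vpm in SLE.yaa mice, against 166 and 203 vpm in WT mice (difference 2.94, SE 0.37, adjusted p = 2.66e-07).

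Of the 10 called genes, Slamf7 (difference 1.51, SE 0.28, adjusted p = 0.000364) and Anxa2 (1.38, SE 0.23, 5.46e-05) changed more in the Ccl5-low cells. Gzmk changed more in the Ccl5-high cells (-1.34, SE 0.31, adjusted p = 0.00789). For Ly6a (0.47, SE 0.18, adjusted p = 0.192), Lag3 (-0.66, SE 0.35, 0.444), Eomes (0.74, SE 0.24, 0.102) and Tmsb4x (-0.28, SE 0.09, 0.0886) a difference was not shown. Among 33 memory and effector genes tested there, 8 had a more positive change in the Ccl5-low cells and 9 a more negative one. The shares over all genes tested were 0.654% and 1.46%. Cd79a, a B cell receptor component, was also among the 8 leading genes, with 15.9 and 45.1 vpm in Ccl5-low SLE.yaa cells, against 98.1 and 89.6 vpm in Ccl5-low WT cells, and 127 and 120 vpm in Ccl5-high SLE.yaa cells, against 16.8 and 84.8 vpm in Ccl5-high WT cells (difference -2.86, SE 0.35, adjusted p = 1.03e-07). Of 16 B cell markers tested there, 8 had a more negative change and 0 a more positive one, against 1.46% and 0.654% of all genes tested. The count of 184 became 726 without SLE.yaa 1, 49 without WT 1 and 44 without WT 2.

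Against CD4 T cells the contrast was wider. The change differed for 872 of 8816 genes, or 9.89%, with 334 (3.79%) more positive and 538 (6.1%) more negative in the Ccl5-low CD8 cells (limma on differences within mice). Naive genes were lower in SLE.yaa CD4 cells than in WT CD4 cells, by more than in Ccl5-low CD8 cells: 20 of 22 tested had a more positive change in the CD8 cells and 0 a more negative one, with a median difference of 1.24, against -0.04 over all genes tested. The CD8 cells were chosen by low Ccl5, while the CD4 class was taken whole. A naive marker was above 0 in 51.2% and 37.8% of SLE.yaa CD4 cells, against 88.7% and 91.2% of WT CD4 cells. In Ccl5-low CD8 cells the shares were 96.4% and 88.2%, against 97.0% and 98.5%. The part of this choice of cells in the contrast was not tested. Lef1 had 165 and 115 vpm in SLE.yaa CD4 cells, against 632 and 639 vpm in WT CD4 cells, so WT CD4 cells stood at the level of WT Ccl5-low CD8 cells and SLE.yaa CD4 cells did not (difference of changes 1.73, SE 0.11, adjusted p = 8.49e-06). Satb1, a chromatin organiser of resting T cells, had 287 and 320 vpm in Ccl5-low SLE.yaa cells, against 335 and 356 vpm in Ccl5-low WT cells, and 73.7 and 45.3 vpm in SLE.yaa CD4 cells, against 436 and 403 vpm in WT CD4 cells (difference 2.47, SE 0.20, adjusted p = 2.74e-05). The median change of 21 naive genes tested in all 3 populations was -0.04 in Ccl5-low CD8, -0.35 in Ccl5-high CD8 and -1.26 in CD4 cells, and all 21 were lower in SLE.yaa CD4 cells by their means.

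**Figure D5:**
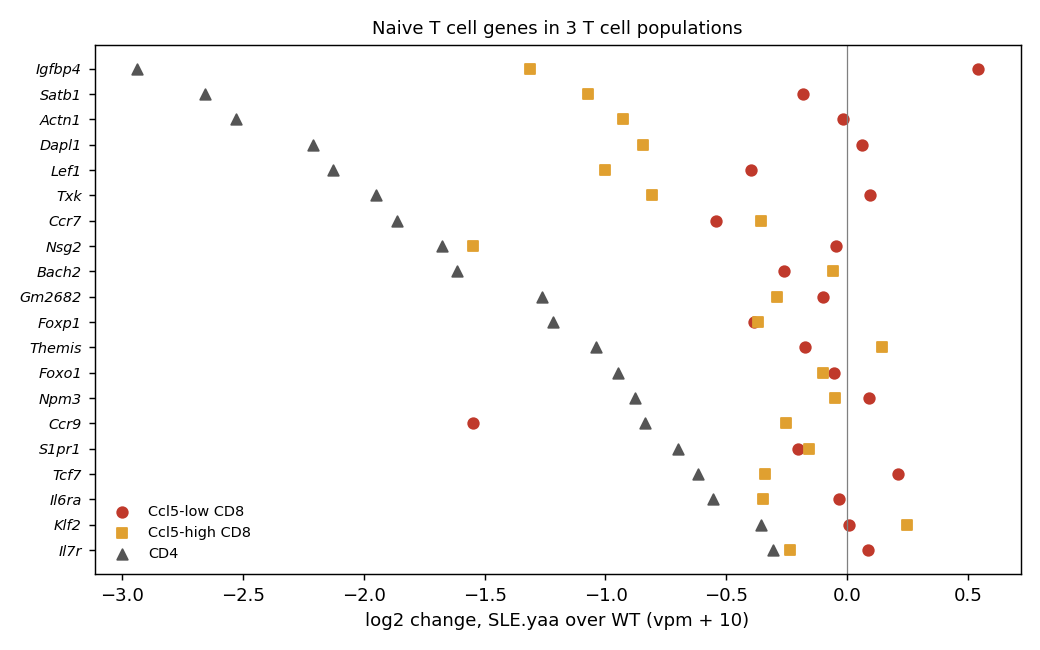
Log2 change of vpm plus 10, SLE.yaa over WT, of 20 naive T cell genes in Ccl5-low CD8, Ccl5-high CD8 and CD4 T cells. All 20 triangles (CD4) lie left of 0, while the circles (Ccl5-low CD8) lie close to 0 apart from Ccr9 at -1.55. The CD8 cells were split by Ccl5 and the CD4 class was taken whole, and the part of this in the contrast was not tested.

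The other leading genes of this comparison had their larger differences in CD4 cells. S100a11, a calcium-binding protein of activated cells, had 282 and 394 vpm in Ccl5-low SLE.yaa cells, against 236 and 217 vpm in Ccl5-low WT cells, and 1318 and 1668 vpm in SLE.yaa CD4 cells, against 228 and 202 vpm in WT CD4 cells (difference -2.19, SE 0.10, adjusted p = 1.77e-06). Srgn, the granule proteoglycan serglycin (-1.71, SE 0.09, adjusted p = 2.73e-06), and the tetraspanin gene Cd82 (-2.07, SE 0.13, 7.79e-06) behaved alike. Sostdc1, a secreted antagonist made by follicular helper T cells, had at most 2.89 vpm in Ccl5-low CD8 cells of any mouse. It had 410 and 346 vpm in SLE.yaa CD4 cells and was listed at 0 in both WT CD4 populations, and its fitted difference of -5.09 depends on the 10 added to each value. The ribosomal protein genes Rps20 (0.90, SE 0.05, adjusted p = 2.73e-06), Rps19 (0.89, SE 0.05, 5.78e-06) and Rps24 (0.66, SE 0.04, 8.49e-06) were lower in SLE.yaa CD4 cells. In Ccl5-low CD8 cells Rps20 and Rps19 overlapped between the groups, and Rps24 had 10814 and 11191 vpm in SLE.yaa cells, against 12211 and 12048 vpm in WT cells. Rps20, for one, had 8128 and 9193 vpm in Ccl5-low SLE.yaa cells, against 8187 and 7562 vpm in Ccl5-low WT cells, and 4253 and 4689 vpm in SLE.yaa CD4 cells, against 8014 and 7208 vpm in WT CD4 cells.

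Of the interferon lists, 3 of 15 interferon-gamma GTPases and 6 of 35 type I genes had a more positive change in the Ccl5-low CD8 cells, and 0 and 3 a more negative one, against 3.79% and 6.1% of all genes tested. Inhibitory receptors changed more in CD4 cells, with 8 of 10 more negative in the CD8 cells, against the same 6.1%. Lag3, as an example, had 496 and 503 vpm in SLE.yaa CD4 cells, against 4.20 and 4.10 vpm in WT CD4 cells (difference of changes -2.50, SE 0.24, adjusted p = 7.22e-05). Genes entered this comparison with at least 10 vpm in 2 mice of either population. Lag3 was below that in the WT mice of both, so it was tested only through the SLE.yaa mice, as other low receptors may have been. Memory and effector genes also changed more in CD4 cells, with 14 of 27 more negative in the CD8 cells and 4 more positive. Their median difference was -1.11, against -0.04 over all genes tested, of which 6.1% were more negative and 3.79% more positive. The CD4 class holds regulatory, helper and resting cells, and the part of their proportions in these differences was not tested. The count of 872 became 2621 without SLE.yaa 1, 1525 without SLE.yaa 2, 451 without WT 1 and 439 without WT 2, and 484 when cells of both populations had to hold a naive marker.

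The receptors of the Ccl5-low cells were all different. A T cell receptor was read in 654 of the 924 cells, 118 and 29 in SLE.yaa mice and 235 and 272 in WT mice, and each of the 654 was a clone of its own among the Ccl5-low cells. With 0 cells in clones of at least 2, exact binomial intervals allow a share of up to 3.08% and 11.9% in SLE.yaa mice and up to 1.56% and 1.35% in WT mice. The Ccl5-high cells had 21 of 115 (18.3%) and 31 of 135 (23%) cells in such clones in SLE.yaa mice, against 0 of 76 and 4 of 109 (3.67%) in WT mice (exact two-sided permutation p = 0.333, the smallest possible). No pair of CDR3 sequences was found in more than 1 mouse, that is 0 pairs.

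In SLE.yaa 1, 2 of the 118 clones (1.69%) also held 1 Ccl5-high cell each, and 0 clones did so in the other 3 mice. Their CDR3 nucleotide sequences are shown because they join the 2 CD8 populations in a single mouse. The deposited fields are sorted, so the chain of each sequence is not stated.
Clone with TRBV19, TRBJ2-7 and TRAV12D-2, first CDR3: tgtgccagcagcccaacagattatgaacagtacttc
Same clone, second CDR3: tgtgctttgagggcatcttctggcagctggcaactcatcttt
Clone with TRBV14, TRBJ2-7 and TRAV12D-3, first CDR3: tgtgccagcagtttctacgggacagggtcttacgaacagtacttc
Same clone, second CDR3: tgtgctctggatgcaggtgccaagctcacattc
All 4 have lengths that keep the reading frame (36, 42, 45 and 33 bases). Both clones use TRBJ2-7 and a TRAV12D gene, which was not set against the use of these genes in the other clones, so no link is read from it.

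Use of beta chain V genes did not differ detectably. Among 589 cells with exactly 1 TRBV and 1 TRAV gene, 22 TRBV genes were seen and 10 had enough clones to test. Of these, 0 passed (edgeR quasi-likelihood test, smallest adjusted p = 0.950), and 0 had an unadjusted p under 0.05. TRBV12-2/13-2, written so because both names were not told apart, had the most clones of the 10 tested when all mice were pooled, though not in WT 2, with 11.5% and 14.3% of clones in SLE.yaa mice, against 11.5% and 5.65% in WT mice. SLE.yaa 2 has 28 such clones, so a moderate shift there was not detectable at this depth.

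The Ccl5-low cells were deeper in SLE.yaa mice, with a median of 6853 and 6464 UMIs, against 5295 and 5587 UMIs in WT mice. They held 2246 and 2008 genes in SLE.yaa mice, against 1828.5 and 1880 genes as medians in WT mice, and 2.12% and 2.30% mitochondrial UMIs, against 2.64% and 2.55% in WT mice. Each of these has an exact two-sided permutation p of 0.333, the smallest possible, and their part in the expression results was not tested beyond the fit on cells of 2000 to 4000 UMIs.

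Traces of other cell types differed between mice. The 18 B cell markers summed to 285 and 1316 vpm in SLE.yaa cells, against 1183 and 1131 vpm in WT cells, so SLE.yaa 1 stood apart, and 7 of the 15 tested were lower in both SLE.yaa mice. The 15 myeloid markers summed to 222 and 877 vpm in SLE.yaa cells, against 302 and 226 vpm in WT cells, with Lyz2 at 1.45 and 127 vpm in SLE.yaa cells, against 3.02 and 10.4 vpm in WT cells. The summed plasma cell markers were 533 and 310 vpm in SLE.yaa cells, against 205 and 185 vpm in WT cells. An immunoglobulin heavy chain was read in 2 and 2 SLE.yaa cells, against 14 and 18 WT cells, and all 10 genes passed again in cells with no heavy chain, where 13 passed in all. That fit left out few SLE.yaa cells, and Ighg2c was among the 10, so it does not measure stray RNA of B or plasma cells. Of the barcodes, 254 occurred in more than 1 expression library, which touches 32 of the 924 cells.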

How the data were processed

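Spleen CD45+ cells of 4 mice were profiled as single-cell RNA with B and T cell receptor libraries. Cell Ranger 5.0.0, Seurat 4.0.0 and the build GRCm38 (mm10) are named in the submitters' processing notes. The deposited expression values are natural log values, ln(value + 1), whose back-transformed values are whole numbers; the authors had adjusted them for depth, so that cells of 1002 to 26847 UMIs have sums of 2663 to 6382. The authors also deposited, per cell, counts of UMIs and genes, mitochondrial and ribosomal RNA as percent of UMIs, and scores for the cell cycle and heat shock. Deposited cells have at most 2999 genes and 5.00% mitochondrial UMIs. Cell types are the authors' annotation. The 924 cells hold 5397752 UMIs.

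Back-transformed values were averaged per mouse and population, scaled to 1000000 (vpm) and by TMM factors (edgeR 4.0.16). Genes with at least 10 vpm in 2 mice were tested as log2(vpm + 10) with limma 3.58.1 in R 4.3.3, with Benjamini-Hochberg adjusted p under 0.05 as the threshold. Changes were compared between populations on differences within mice. These values are no counts, so no count test was run on them. Shares of cell types and TRBV genes, which are whole counts, were tested with edgeR's quasi-likelihood test. Single values used exact permutation tests, and shares have exact Clopper-Pearson 95% intervals, which like the upper limits cover counting error only. On simulated data for the main comparison, 76.5% of 200 changed genes among 8262 were recovered at a log2 change of 1, and 100% at 2, with 19 and 12 false calls (11.0% and 5.66% of calls). The simulated noise was normal, independent between genes and of the same spread in all 4 mice. The real mice gave 140, 51, 332 and 401 cells, so these rates do not cover mice of unequal spread. No doublet caller was run. Rows without a gene name (15, with 0.0440% of values) were left out. TRBV use was read in cells with exactly 1 TRBV and 1 TRAV gene. Python 3.11.15, numpy 2.4.6, pandas 2.3.3, scipy 1.17.1 and matplotlib 3.10.9 were used.

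The members and gene lists were chosen with earlier results of these data known. Genes were named by a rule: up to 12 per direction by log2 change among those past the threshold, up to 4 passing members per list and direction, the markers, and the 8 of smallest adjusted p per comparison of changes. Some genes that the rule names are not reported here. Other list members quoted as examples were chosen after their values were seen. The alternatives were other pseudocounts, minimums, scalings, Ccl5 thresholds and cell subsets, and leaving out each mouse.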

Additional observations from a re-analysis of the deposited data

Results flagged for a closer look

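For 15 named genes the change from WT to SLE.yaa differed between the Ccl5-low CD8 cells and another T cell population by a test of the difference itself (limma, adjusted p from 7.94e-13 to 8.49e-06). Against Ccl5-high CD8 cells, the change in Ccl5-low cells was more positive for Ly6c2 (1.86), Xcl1 (2.94) and Id3 (1.82), and more negative for Ccl3 (-3.31), Cd79a (-2.86), Itga4 (-1.41) and Lsp1 (-1.18), all on the log2 scale. Against CD4 T cells it was more positive for Lef1 (1.73), Rps20 (0.90), Rps19 (0.89) and Rps24 (0.66), and more negative for Sostdc1 (-5.09), S100a11 (-2.19), Cd82 (-2.07) and Srgn (-1.71). These genes were taken for their small adjusted p, so their sizes are a selection. Their p-values rest largely on spread pooled over genes, with prior degrees of freedom of 53.1 against Ccl5-high cells and 8.90 against CD4 cells.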

How the results depend on the processing

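With 2 mice a group, counts of calls moved most. The 10 genes called in Ccl5-low cells became 1 with a pseudocount of 1, 0 with no minimum, 0 in cells of 2000 to 4000 UMIs, 2 on the mean of ln values, 16 in cells with a naive marker and 68 with mice weighted by cell number (an alternative chosen after seeing the data), and 29 to 1807 when 1 mouse was left out. The 184 genes against Ccl5-high cells became 69 with a pseudocount of 1, 16 with no minimum, 112 with Ccl5 at 0, and 44 to 726 when 1 mouse was left out. The 872 genes against CD4 cells became 579 with a pseudocount of 1, 521 with no minimum, 484 in cells with a naive marker in both populations (chosen after seeing the data), and 439 to 2621 when 1 mouse was left out. The share of all cells lost its call with TMM factors over types (-1.57) and among B, CD4, CD8 and NK cells (-1.48), and ran from -2.97 to -1.21 when 1 mouse was left out. Dapl1 turned to -1.78 in cells of 2000 to 4000 UMIs, -0.094 on ln values, -0.013 with weights, and ran from -0.10 to 0.23 when 1 mouse was left out; Bcl3 turned to -0.49 in cells of 2000 to 4000 UMIs. The difference in percent of Rpl UMIs was -0.242 points with Ccl5 at 0. The cause of these shifts was not tested. No paired analysis was possible because the labels give no replicate numbers shared by the groups, and mouse numbers are accession order.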

Other observations

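Other genes and lists of the Ccl5-low cells gave 0 calls by limma. Kcna2, a voltage-gated potassium channel gene, had 5.79 and 8.21 vpm in SLE.yaa cells, against 38.5 and 28.6 vpm in WT cells (log2 change -1.35, SE 0.26, adjusted p = 0.164). Rgcc, a cell cycle regulator, had 114 and 73.9 vpm in SLE.yaa cells, against 214 and 180 vpm in WT cells (-1.01, SE 0.21, adjusted p = 0.188). Klf2 and S1pr1, which keep naive T cells circulating, did not pass (0.01 and -0.21), and neither did the activation and retention marker Cd69 (0.22). Of 16 chemokine receptor, adhesion and egress genes, 6 were higher and 4 lower in both SLE.yaa mice, against 17.9% and 22.5% of all genes tested, with a median of 0.09. Of 83 ribosomal protein genes, a list drawn up after the data were seen, 26 (31.3%) were higher and 10 lower, against the same shares, with a median of 0.04.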
